A study of Mus musculus with 8 samples.

Results

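The genes described here encode complexes that tether vesicles to their target membrane, return proteins from endosomes, or bud and cut membranes at endosomes. They were taken by symbol from the array annotation as every probe set whose only gene is a Trappc, Exoc, Cog, Vps or Chmp gene or Snf8, which gave 176 probe sets of 80 genes out of 45101 probe sets. The gene group was selected on the log2 differences between these same groups of arrays, for the falls of Trappc2, Snf8 and several Exoc genes. Every difference given for them is therefore a description of these arrays, and the calls of the fit are reported without being read as independent support. The arrays carried total RNA of LB-22 cells, an immortalized line derived from embryonic mouse kidney, after a siRNA against Wt1 (4 arrays) or a scrambled control siRNA (4 arrays). All cells had been expanded at 33 °C with interferon gamma, were moved to 37 °C without it at transfection, received 25 pmol of siRNA with a Lipofectamine reagent for 6 h, and were grown for 48 h. The expansion medium also held serum, prostaglandin E, fibroblast growth factor, hydrocortisone, thyroid hormone, insulin and transferrin. A single cell line was used, and the labels do not say whether replicates were separate cultures, so the spread between arrays may be technical.

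Tethering complexes catch an incoming vesicle before SNARE proteins fuse it. TRAPP acts between the endoplasmic reticulum, the Golgi and autophagosomes and activates Rab GTPases, COG tethers vesicles within the Golgi, the exocyst acts at the plasma membrane, and GARP and HOPS act at the trans-Golgi network and the lysosome. Retromer and the related retriever complex sort cargo on endosomes for recycling. The ESCRT complexes sort ubiquitinated cargo into vesicles that bud into the endosome, and the ESCRT-III filaments with the ATPase Vps4 also cut membranes in cell division and repair. In kidney epithelia these complexes serve apical delivery and the recycling of receptors.

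Values are MAS5 signals, a linear brightness per probe set made by the authors, with an equal trimmed mean on all 8 arrays. Array medians were 279.1 to 346.1. Control probe sets for Bacillus subtilis transcripts, which mark background, reached 121.6 to 227.2 as their highest signal per array. The Wt1 probe set retained 20.5% of control after its own siRNA, from a mean of 7787 ± 607 to 1610 ± 251 (SD, n = 4). The exact permutation test, two-sided, gave p = 0.0286, and groups of this size allow no smaller value. Of 10 embryonic kidney marker genes on the array, 7 were above background on all control arrays, and Foxd1 was above it on no array. The summed signal of the kidney probe sets was 11336 to 13372 on control arrays and 5654 to 7320 after Wt1 siRNA. That sum includes Wt1, whose mean alone went from 7787 to 1610. Of 6 tested kidney probe sets, 2 (those of Wt1 and Gata3) were below 0, and the median log2 difference was 0.26. Osr1 was higher (log2 0.75). Gata3 was called as lower (-0.64), a call lost under both other scalings and without any array except control array 4 and Wt1 siRNA array 4 (-0.72 to -0.45). Among markers of other cells, Ptprc, Itgam and Pecam1 were above background on no array. The other 2 leukocyte genes, Cd68 and Csf1r, were above it on all control arrays. Of these, 1 was called as higher (log2 0.99) and 1 as lower (-0.76). Calls as lower were also made for 1 endothelial gene (-0.45) and for 1 neuronal or glial gene on 2 probe sets (-0.56 at the lowest). The endothelial and the neuronal or glial calls were lost when each array was centred on its median. The summed signal of the 7 leukocyte probe sets ranged from 3290 to 4433 (control siRNA) and from 4211 to 4686 (Wt1 siRNA). For 5 endothelial probe sets the sums ranged from 2185 to 2775 and from 1738 to 1997 in the same order, for 6 muscle probe sets from 797 to 998 and from 714 to 1089, and for 11 neuronal and glial probe sets from 9086 to 10338 and from 6937 to 7754. The part of these shifts in the results was not tested. Signal near the 3′ end over that near the 5′ end, a measure of RNA integrity, was 0.793 to 0.913 on control and 0.810 to 0.891 on Wt1 siRNA arrays for Gapdh, and 1.12 to 1.21 and 1.11 to 1.15 for Actb. In bulk RNA, fewer cells of a type and less RNA per cell cannot be told apart.

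Of the 80 genes, 75 had at least 1 probe set above background on every control array, so most of this machinery was expressed in LB-22 cells. The fit was run on the brighter part of the array (22518 probe sets, a share of 0.5 by mean log2 signal), which held 131 of the 176 member probe sets and 75 of the 80 genes. The genes with no tested probe set were Cog5, Vps25, Vps13c, Exoc3l and Exoc3l2. Among the 45 probe sets left out, the highest control mean was 369.2, and 5 were above background on every control array. Among tested members the median SD within a group was 0.15 (control) and 0.16 (Wt1 siRNA) on the log2 scale.

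Falls outnumbered rises among the members on the deposited scale. Limma (adjusted p under 0.05 over all tested probe sets) called 38 of 131 member probe sets (29.0%), beside 23.1% of all tested probe sets. Of these, 30 were lower (22.9%, beside 12.3% of all tested) and 8 higher (6.11%, beside 10.8%). They belonged to 30 genes, 23 with a fall and 7 with a rise, and no gene had calls in both directions, although Cog8 did under quantile normalization, in the brightest share of 0.25 of the probe sets and without control array 3. The other 45 tested genes had no call. The groups of arrays did not overlap for 44 member probe sets, or 33.6%, beside 27.0% of all tested probe sets. The median log2 difference (Wt1 siRNA minus control siRNA throughout) was -0.11 over the members and -0.01 over all tested probe sets. With each array centred on its median signal, which raised every difference by 0.11, the members had 15 lower (11.5%, beside 6.08% of all tested) and 8 higher (6.11%, beside 10.9%), and a median of 0.00 against 0.10 over all tested probe sets. The number of falls thus depended on the scaling. The members' share of lower calls was above that of all tested probe sets under both. Because the gene group was chosen for falls on these same arrays, that excess describes the choice and supports nothing further. Quantile normalization gave 27 lower (20.6%, beside 11.7%) and 8 higher.

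Tested members under 50% of control numbered 7 of 131 probe sets (2.08% of all tested probe sets were that low). No tested member reached 2 times the control level, and the share of all tested probe sets that did was not computed. The 7 probe sets lay in as many complexes or paralog groups, with Trappc2 of TRAPP at 26.9% of control, Snf8 of ESCRT-II at 29.8%, Exoc5 of the exocyst at 39.6%, Chmp3 of ESCRT-III at 45.3%, Cog7 of COG at 48.4%, Vps35l of retriever at 49.2% (the probe set with overlapping groups) and the exocyst paralog Exoc3l4 at 49.7%. The largest rise was that of Vps26a of retromer, at 1.63 times control.

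**Figure D1:**
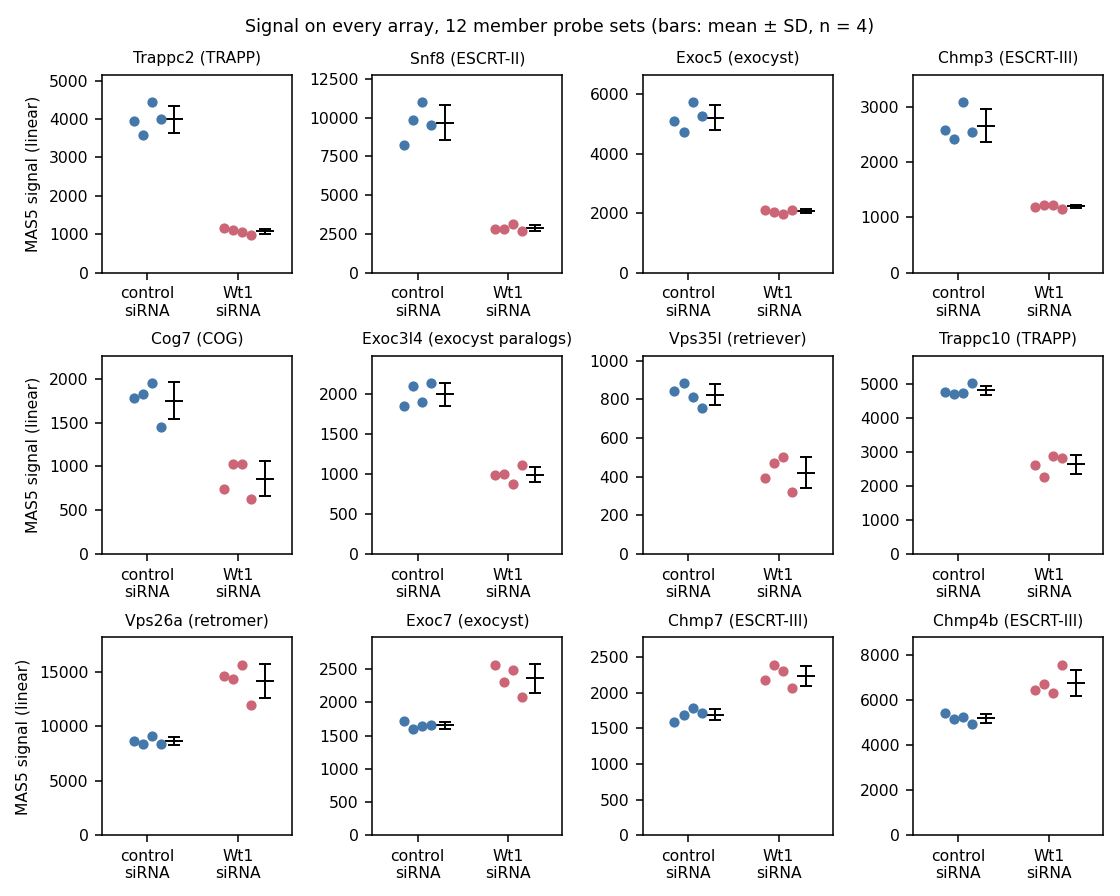
MAS5 signal (linear, vertical axis from 0) on each of the 4 control siRNA and 4 Wt1 siRNA arrays for 12 member probe sets, 1 panel each; the bar beside the points is mean ± SD; Vps35l is the probe set at 50.4% of control. The first 8 panels (Trappc2 to Trappc10) show Wt1 siRNA arrays below all control arrays, and the last 4 (Vps26a, Exoc7, Chmp7, Chmp4b) show them above.

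Promoter sequence is shown for the members with the largest falls that RefSeq's table holds, Trappc2 and Exoc5, and for the 3 members with a WT1 or EGR site string (chosen after their values were seen). Of the 80 member genes 57 had an entry (build GRCm38.p6). Shown are the 250 bases before the annotated start, 5′ to 3′ on the gene's strand, in lower case with matched letters in capitals. Trappc2 (chrX:166440505-166440754, plus strand) and Exoc5 (chr14:49066668-49066917, minus strand) had no match in these bases, and the ETS string of Exoc5 counted in the next paragraph lies after the start. The WT1 or EGR string lay at bases -12 to -4 in Chmp3 (chr6:71544103-71544352, plus), which has another annotated start without it, at -23 to -15 in Vps37c (chr19:10688485-10688734, plus), also 1 of several starts, and at -47 to -39 in Vps26c (chr16:94526630-94526879, minus). The other capitals are a CCAAT box in Chmp3 and an ETS string in Vps26c.
Trappc2: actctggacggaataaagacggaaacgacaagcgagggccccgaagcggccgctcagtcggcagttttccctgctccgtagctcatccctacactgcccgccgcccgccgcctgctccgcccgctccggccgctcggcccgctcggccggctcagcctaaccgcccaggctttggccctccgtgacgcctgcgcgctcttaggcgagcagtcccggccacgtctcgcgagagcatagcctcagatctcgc
Exoc5: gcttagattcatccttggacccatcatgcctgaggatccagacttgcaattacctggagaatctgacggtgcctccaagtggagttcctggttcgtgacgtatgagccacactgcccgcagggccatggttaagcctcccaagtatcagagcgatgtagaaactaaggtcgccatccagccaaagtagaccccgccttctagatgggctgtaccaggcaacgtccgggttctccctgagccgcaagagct
Chmp3: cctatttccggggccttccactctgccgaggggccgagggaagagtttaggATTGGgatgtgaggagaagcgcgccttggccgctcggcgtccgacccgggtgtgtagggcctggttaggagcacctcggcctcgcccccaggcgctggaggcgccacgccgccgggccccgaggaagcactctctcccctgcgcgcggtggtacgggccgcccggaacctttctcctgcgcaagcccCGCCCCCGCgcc
Vps37c: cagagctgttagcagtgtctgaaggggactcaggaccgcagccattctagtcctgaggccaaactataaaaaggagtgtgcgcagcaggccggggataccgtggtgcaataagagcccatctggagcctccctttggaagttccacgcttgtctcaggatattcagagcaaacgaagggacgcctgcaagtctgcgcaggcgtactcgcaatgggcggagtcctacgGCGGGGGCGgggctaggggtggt
Vps26c: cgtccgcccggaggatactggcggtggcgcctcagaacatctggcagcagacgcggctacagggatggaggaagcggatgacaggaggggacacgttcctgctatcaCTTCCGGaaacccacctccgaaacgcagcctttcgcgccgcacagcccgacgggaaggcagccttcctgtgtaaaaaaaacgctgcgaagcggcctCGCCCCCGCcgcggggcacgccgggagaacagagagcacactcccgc

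Searched on both strands of the full windows (250 bases before to 50 after the start), the WT1 or EGR string GCGGGGGCG was in 3 of 57 member genes (5.26%), beside 2.91% of all 32851 windows and 3.31% of all genes with a window. It was in 2 of the 18 members with a fall and in 1 of the 5 with a rise. The ETS string CCGGAAG was in 21 member genes (36.8%, beside 9.93% of all genes), including 7 of the 18 with a fall and 1 of the 5 with a rise. All genes here are those with a window, whether expressed in these cells or not. The E-box CACGTG, the core of the motif read by the lysosomal regulator TFEB, was in 7 (12.3%, beside 8.09%) and the CCAAT box in 15 (26.3%, beside 41.1%). No searched string contains another, and a match describes letters only.

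In TRAPP the fall was concentrated in Trappc2, which encodes sedlin, a small core subunit mutated in a human skeletal dysplasia. In replicate order, as for all array values given here, the control signals were 3954.8, 3583.4, 4444.6 and 3994.6, and those after Wt1 siRNA were 1149.0, 1097.2, 1059.0 and 981.4. The lowest control array was more than 3 times the highest Wt1 siRNA array, and the log2 difference was -1.90 ± 0.10 (SE of the fit). Its close relative Trappc2l, another core subunit, was at 0.00 ± 0.08 with group means of 8178 ± 627 and 8188 ± 482 (SD, n = 4), with overlapping groups.

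Trappc10, a subunit found only in the TRAPPII form of the complex, had control signals of 4782.3, 4721.7, 4750.8 and 5031.1 and Wt1 siRNA signals of 2609.2, 2270.3, 2880.4 and 2823.5. It fell to 54.7% of control (log2 -0.87 ± 0.09), and the groups were far apart. Trappc9, its TRAPPII partner, was at -0.16 ± 0.13 and not called. The core subunits Trappc4, Trappc1 and Trappc5 fell to 73.8%, 80.5% and 80.7%, and a second Trappc5 probe set was at -0.18 ± 0.16 and not called. With arrays centred on their medians these 3 calls were lost and those of Trappc2 and Trappc10 were kept. The Trappc1 call was also lost without control array 4 (log2 -0.30), and the Trappc5 call without any of control arrays 2 and 4 and Wt1 siRNA arrays 1, 2 and 3 (-0.34 to -0.26) and under quantile normalization. The remaining core and TRAPPIII subunits (Trappc3, Trappc6a, Trappc6b, Trappc8, Trappc11 and Trappc13) lay between -0.27 and 0.08 and were not called; a Trappc6b probe set passed the threshold as lower without control array 2 (-0.27).

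Over TRAPP, 5 of 20 tested probe sets were lower and 0 higher by limma (25% called, beside 23.1% of all tested). The median was -0.15 (-0.04 with centring). No share of all tested probe sets at an unadjusted p under 0.05 was computed, here or for the counts at that threshold below. At that unadjusted p, 2 were higher. The 2 were probe sets of Trappc12, a TRAPPIII subunit, at 0.93 ± 0.36 and 0.58 ± 0.25. Their signals were dim and spread (519 ± 276 and 346 ± 120 on control arrays, SD, n = 4). Both were called as higher without control array 4, where TRAPP then had 2 higher and 3 lower, and the brighter was called with centring. Another tested Trappc12 probe set was at -0.31 ± 0.25, so the gene's direction was not settled.

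The exocyst had 6 lower and 1 higher among 17 tested probe sets (41.2% called, beside 23.1% of all tested). The median was -0.23 (-0.12 with centring). Exoc5, a subunit needed for assembly of the complex and for ciliogenesis in kidney cells, gave 5090.6, 4727.4, 5732.4 and 5266.0 on control arrays and 2113.0, 2046.5, 1959.1 and 2109.8 on Wt1 siRNA arrays. No array of one group came near the other, and the log2 difference was -1.34 ± 0.08. Exoc6, which links the complex to Rab GTPases, had 3 tested probe sets and all fell, to 54.3%, 66.4% and 73.3% of control. The brightest of them read 1640.2, 1721.0, 1493.6 and 1854.8 on control and 1284.5, 1145.3, 1199.5 and 1276.3 on Wt1 siRNA arrays, without overlap. The dimmest (log2 -0.59 ± 0.18) lost its call under quantile normalization and without any array except Wt1 siRNA array 4, at -0.65 to -0.53.

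Exoc6b, the paralog of Exoc6, fell to 73.8% on its brighter probe set (2387.4, 2390.6, 2424.6 and 2433.4 against 1919.1, 1686.2, 1508.0 and 2052.2) and was at -0.29 ± 0.30 on the other. Exoc1, which binds lipid at the plasma membrane, fell to 74.8% (2427.2, 2500.2, 2586.1 and 2530.8 against 1955.4, 2095.3, 1865.5 and 1624.0). Both groups of arrays were apart for these genes, but the calls of Exoc1, Exoc6b and 2 of the 3 Exoc6 probe sets were lost with centring, which left 2 lower and 1 higher. Exoc7, a lipid-binding subunit that anchors the complex at the plasma membrane, went the other way at 1722.0, 1593.9, 1649.6 and 1665.3 on control and 2564.2, 2312.5, 2484.5 and 2076.6 on Wt1 siRNA arrays. It rose 1.42-fold (0.51 ± 0.10) and kept its call under each alternative that tested it.

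Exoc4, with 5 tested probe sets between -0.23 and 0.09, Exoc2 (-0.07 ± 0.09), Exoc3 (-0.24 and -0.08) and Exoc8 (0.17 ± 0.08) were not called. The largest fall and the only call as higher thus both lay in the subcomplex of Exoc5, Exoc6, Exoc7 and Exoc8. Among the Exoc3-like paralogs, which share sequence with Exoc3 but are not standing subunits, only Exoc3l4 was tested. Its control signals were 1842.8, 2100.0, 1893.1 and 2127.4 and its Wt1 siRNA signals 986.8, 992.8, 876.7 and 1103.6, a log2 difference of -1.01 ± 0.11. Exoc3l and Exoc3l2 were above background on no control array.

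**Figure D2:**
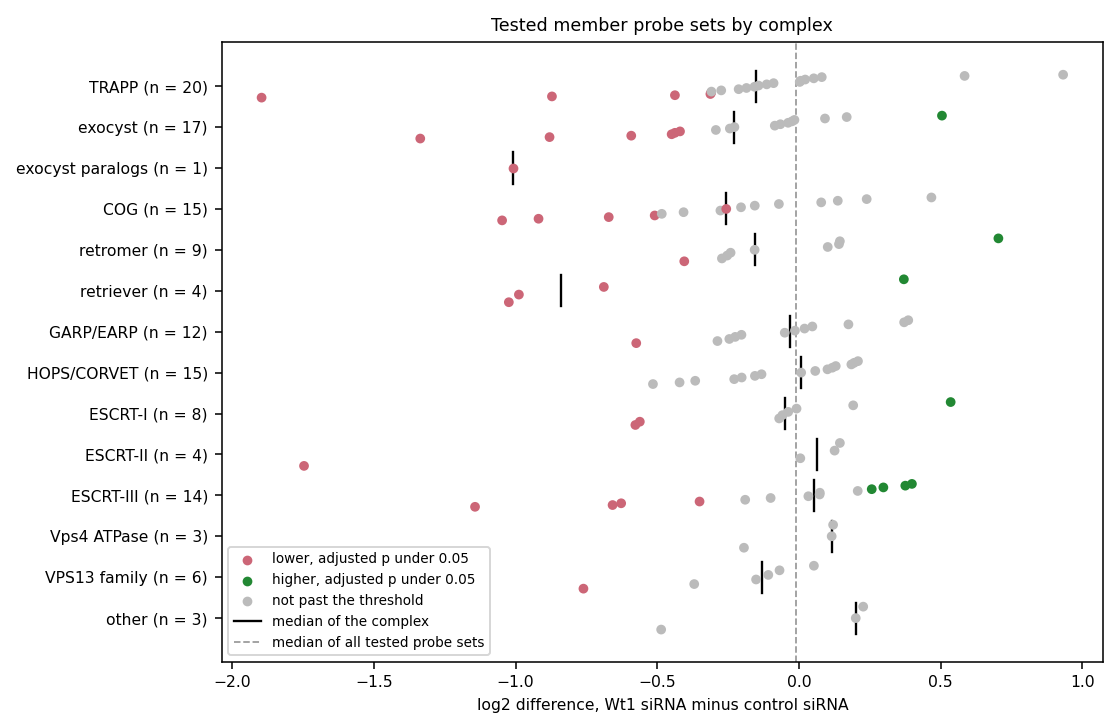
Log2 difference (Wt1 siRNA minus control siRNA, horizontal axis) of the 131 tested member probe sets, 1 row per complex; colours mark the limma call, black bars the median of each row and the dashed line the median of all tested probe sets (-0.01). Trappc2 (-1.90), Snf8 (-1.75) and Exoc5 (-1.34) stand far left of the other members of their complexes. No probe set of the HOPS/CORVET row, which holds only genes with a Vps symbol, was called.

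The COG complex had 5 lower and 0 higher of 15 tested probe sets by limma (33.3% called, beside 23.1% of all tested). At an unadjusted p under 0.05, 1 was higher, and the median was -0.26 (-0.15 with centring). Cog7, of the lobe formed by Cog5 to Cog8 and a cause of a human glycosylation disorder, had signals of 1777.8, 1823.2, 1950.5 and 1451.1 on control and 748.3, 1030.4, 1032.1 and 631.8 on Wt1 siRNA arrays. The groups did not overlap, and the log2 difference was -1.05 ± 0.17. Cog4, which binds SNARE regulators, fell on 2 of its 3 tested probe sets. The better measured of them gave 3840.9, 3728.7, 4481.4 and 3827.1 against 2591.6, 2339.6, 2581.7 and 2441.6, or 62.8% of control. The second was at 52.9%, and the third, with a control mean of 846 ± 134 (SD, n = 4), was at -0.20 ± 0.17.

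Cog1 and Cog8 were less settled. A Cog1 probe set fell to 83.7%, lost its call with centring and without any array except control arrays 1 and 3 (log2 -0.27 to -0.22), and 4 others of the gene were not called, 1 of which passed the threshold without control array 3 (-0.60). A Cog8 probe set fell to 70.3% with overlapping groups, and lost its call with centring and without control array 1, 2 or 4 or Wt1 siRNA array 3 (-0.49 to -0.41). Its other 2 probe sets were at 0.24 ± 0.08 and 0.47 ± 0.28, so the gene's probe sets pointed both ways, and the first of these was called as higher under quantile normalization and without Wt1 siRNA array 3 (0.28), and the second without control array 3 (0.75). When probe sets of shared sequence (suffix _s_at or _x_at) were removed, COG had 2 lower, and without control array 4 it had 3. Cog2, Cog3 and Cog6 were at -0.07 ± 0.11, 0.14 ± 0.10 and -0.41 ± 0.15 and not called, although Cog6 passed the threshold without control array 2 (-0.50) or Wt1 siRNA array 3 (-0.51).

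Retromer and retriever showed subunits moving in opposite directions. Vps26a, the retromer arrestin-like subunit, had signals of 8669.1, 8381.8, 9118.3 and 8368.9 on control and 14578.8, 14361.0, 15636.0 and 11937.9 on Wt1 siRNA arrays. Every Wt1 siRNA array exceeded every control array, and the log2 difference was 0.70 ± 0.09. Its paralog Vps26b, which takes the same place in retromer, fell on 1 of 3 probe sets, from 1669.3, 1710.0, 1640.4 and 1739.1 to 1255.1, 1392.7, 1384.5 and 1096.5 (75.6% of control). That call was lost with centring (-0.30) and without control array 2 or 4 or Wt1 siRNA array 1 (-0.40 to -0.39), and the other 2 probe sets were at -0.25 ± 0.11 and -0.16 ± 0.14. The core subunits Vps35 (0.14 and -0.24) and Vps29 (-0.27 to 0.14 over 3 probe sets) were not called. Retromer thus had 1 higher and 1 lower of 9 (22.2% called, beside 23.1% of all tested). Without control array 3 a Vps35 probe set was called as lower (-0.64), and without Wt1 siRNA array 4 a Vps29 probe set as higher (0.31).

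Retriever recycles integrins and other cargo bound by sorting nexin Snx17 and is built from Vps35l, Vps26c and the Vps29 it shares with retromer. All 3 tested Vps35l probe sets fell. The brightest read 2149.7, 2634.4, 2959.7 and 2331.8 on control and 1500.9, 1714.1, 1691.8 and 1331.7 on Wt1 siRNA arrays (62.1% of control), and the next 844.4, 882.9, 810.5 and 756.1 against 391.7, 469.5, 502.1 and 319.6 (50.4%). The remaining tested one, at -1.02 ± 0.28, had a control array at 396.3 within the range of the Wt1 siRNA arrays, and its call was lost without control array 1, 2 or 4 or Wt1 siRNA array 1 or 3 (log2 -0.90 at the weakest). Vps26c rose 1.29-fold, from 8062.8, 8040.2, 9592.0 and 8887.7 to 10980.7, 11347.0, 12311.0 and 10067.6, with no overlap. Retriever thus had 1 higher and 3 lower of 4 tested probe sets (100% called, beside 23.1% of all tested). The calls of Vps26c and of all Vps35l probe sets were kept under centring and quantile normalization.

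GARP and EARP share Vps51, Vps52 and Vps53 and differ by Vps54 or Vps50. They had 1 lower and 0 higher of 12 tested probe sets by limma (8.33% called, beside 23.1% of all tested). At an unadjusted p under 0.05 they had 1 higher and 1 lower. Their median was -0.03, and 0.08 with centring. The call was for Vps54, the GARP-specific subunit whose mutation causes motor neuron loss in the wobbler mouse. Its signals were 2280.2, 2748.6, 3213.5 and 2813.8 on control and 1980.1, 2029.3, 1999.0 and 1436.9 on Wt1 siRNA arrays, or 67.2% of control. The call was lost with centring (-0.47), and the other tested Vps54 probe set was at -0.25 ± 0.12 with groups that also did not overlap. Vps50 was at 0.02 ± 0.09 on its brighter probe set. Without Wt1 siRNA array 4 a Vps53 probe set was called as higher (0.47) and a Vps52 probe set as lower (-0.43).

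For HOPS and CORVET, which tether late and early endosomes, 8 genes with a Vps symbol were grouped here. Vps33b (-0.13 ± 0.17) was counted among them, and whether it belongs to these complexes was not checked. The CORVET subunit Tgfbrap1 has another symbol and was counted with the partners below. It was called as higher on 1 of 2 tested probe sets. Of the 15 tested probe sets of the group, 0 were called by limma. At an unadjusted p under 0.05, 1 was higher and 2 lower, with no share of all tested probe sets computed beside them. The differences ran from -0.51 to 0.21 with a median of 0.01 (0.12 with centring). Vps18, a shared core subunit and ubiquitin ligase, was at -0.42 ± 0.16 and -0.37 ± 0.14, and Vps39, specific to HOPS, at -0.51 ± 0.30 and -0.20 ± 0.13. Vps11, Vps33a and Vps8 were between 0.01 and 0.21. Without Wt1 siRNA array 1 a Vps18 probe set was called as lower (-0.54), and without control array 3 a Vps41 probe set as higher (0.27). A share of calls of 0 in these 15 stands beside 23.1% of all tested probe sets, and a p above the threshold does not show that the levels were equal.

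The ESCRT genes moved in both directions. In ESCRT-II, Snf8, which encodes the subunit VPS22 at the centre of the complex, had signals of 8255.2, 9827.6, 11007.4 and 9537.1 on control and 2840.7, 2798.0, 3135.6 and 2695.8 on Wt1 siRNA arrays. The groups were far apart, with a log2 difference of -1.75 ± 0.09, and the value rests on the gene's single probe set. Its partner Vps36, which binds ubiquitin, was at 0.01, 0.13 and 0.14 on 3 probe sets, none called. The third subunit gene, Vps25, was near background at 178 ± 51 (SD, n = 4) on control arrays and was not tested. ESCRT-II thus had 1 lower and 0 higher of 4 tested probe sets (25% called, beside 23.1% of all tested).

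In ESCRT-I, the paralogs Vps37b and Vps37c, alternative subunits of the complex, had opposite calls. The complex had 2 lower and 1 higher of 8 tested probe sets (37.5% called, beside 23.1% of all tested). Vps37c fell on both probe sets, from 2098.3, 2200.9, 2464.0 and 1976.6 to 1227.5, 1821.3, 1521.9 and 1334.9 on one and to 67.8% of control on the other. Both calls were lost with centring (-0.47 and -0.45), and that of the other was also lost without Wt1 siRNA array 3 (-0.47). Both probe sets carry the suffix _s_at, which marks sequence shared between transcripts. Vps37b was 1.45 times control with overlapping groups (2422.9, 1926.8, 1882.0 and 1457.9 against 2945.2, 2945.2, 2276.0 and 2866.2). Its call was lost without control array 4 or Wt1 siRNA array 1 or 2 (0.41 to 0.50). Vps28, Vps37a and Vps37d lay between -0.07 and 0.19 and were not called.

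ESCRT-III had 4 lower and 4 higher of 14 tested probe sets (57.1% called, beside 23.1% of all tested). The median was 0.05 (0.16 with centring, where 2 were lower and 3 higher). Chmp3, which helps to shape the filament, had 2571.3, 2412.5, 3083.0 and 2541.0 on control and 1189.6, 1213.9, 1223.8 and 1156.3 on Wt1 siRNA arrays, a log2 difference of -1.14 ± 0.10. The Wt1 siRNA arrays were all below the lowest control array. The second Chmp3 probe set was at -0.35 ± 0.11, and its call was lost without any array except Wt1 siRNA arrays 3 and 4 (-0.37 to -0.27), with centring and under quantile normalization. Chmp2a, which works with Chmp3 and recruits Vps4, fell to 63.4% (6246.7, 6402.9, 7044.9 and 7253.6 against 4368.7, 4609.5, 4469.2 and 3668.9). Chmp1b, a late-acting filament protein, fell to 64.7% on one probe set (3247.1, 3153.9, 4362.3 and 3785.2 against 1978.8, 2587.8, 2695.1 and 2153.1), a call lost with centring (-0.52), and was at -0.10 ± 0.08 on the other.

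The rises in ESCRT-III were smaller. Chmp4b, the main filament-forming subunit, rose on both probe sets, from 5423.2, 5166.9, 5249.9 and 4926.2 to 6433.6, 6710.7, 6292.5 and 7560.1 on one (1.30-fold) and by 1.23-fold on the other. Chmp7, which brings ESCRT-III to the nuclear envelope, rose 1.32-fold (1588.4, 1680.1, 1790.1 and 1711.7 against 2176.0, 2389.6, 2296.3 and 2070.6). The Chmp4b and Chmp7 groups did not overlap, and their calls were kept without any single array. Chmp2b, the paralog of Chmp2a and a dementia gene, was called at 0.26 ± 0.08 on one probe set and was at 0.21 ± 0.07 on the other. Its call was lost without any array except Wt1 siRNA arrays 1 and 4 (0.22 to 0.28), under quantile normalization (0.24) and with centring, where the difference was larger (0.37). The other probe set was called without control array 3 or Wt1 siRNA array 4 (0.23 in both). Chmp1a, Chmp5, Chmp6 and the tested Chmp4c probe set lay between -0.19 and 0.07 and were not called. The Vps4 ATPase genes were at -0.19 ± 0.09 (Vps4a) and 0.12 (both tested Vps4b probe sets). Limma called 0 of these 3, beside 23.1% of all tested, and 0 passed at an unadjusted p under 0.05. So few probe sets say little about these genes. Without control array 2 Vps4a was called as lower (-0.28).

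The VPS13 proteins, which move lipids between organelles and form no part of these complexes, entered through their symbol. Vps13d, which acts in mitochondrial clearance, fell to 59.0% on one probe set (819.2, 717.6, 921.8 and 956.7 against 504.6, 405.2, 563.3 and 546.8) and was at -0.15 ± 0.15 on a second. Vps13a and Vps13b had tested probe sets between -0.37 and 0.05, none called. The family thus had 1 lower and 0 higher of 6 (16.7% called, beside 23.1% of all tested). Vps45, a regulator of SNAREs, was at -0.49 ± 0.17, Vps9d1 at 0.23 ± 0.15, and Vps72, a chromatin protein unrelated to vesicles, at 0.20 ± 0.13. Limma called 0 of these 3, beside 23.1% of all tested, and 1 was lower at an unadjusted p under 0.05. Without Wt1 siRNA array 3 Vps45 was called as lower (-0.60).

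Signs of several probe sets of one gene were compared only among the members, and no share over other genes was computed beside them. Of 36 genes with at least 2 tested probe sets, 23 had all differences of one sign and 13 had both signs. All tested probe sets passed the threshold in 5 genes, namely Exoc6, Vps35l, Vps37c, Chmp3 and Chmp4b, and at least 1 did in 15. Trappc2, Snf8, Exoc5, Cog7, Exoc3l4, Vps26a and Exoc7 each rested on 1 tested probe set.

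**Figure D3:**
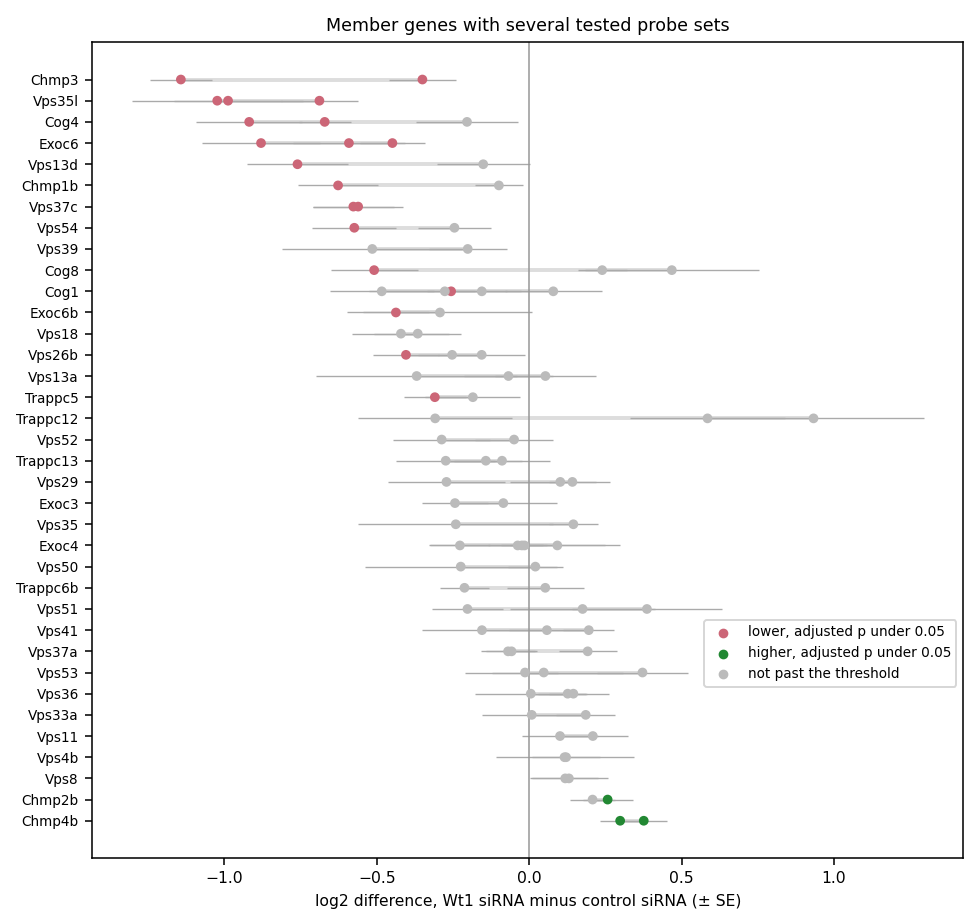
Log2 difference ± SE (horizontal axis) of every tested probe set of the 36 member genes with more than 1, 1 row per gene, coloured by limma call; pale bars join the lowest and highest probe set. Vps35l and Exoc6 have all 3 probe sets lower, while Cog8 (-0.51 to 0.47) and Trappc12 (-0.31 to 0.93) span 0.

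**Figure D4:**
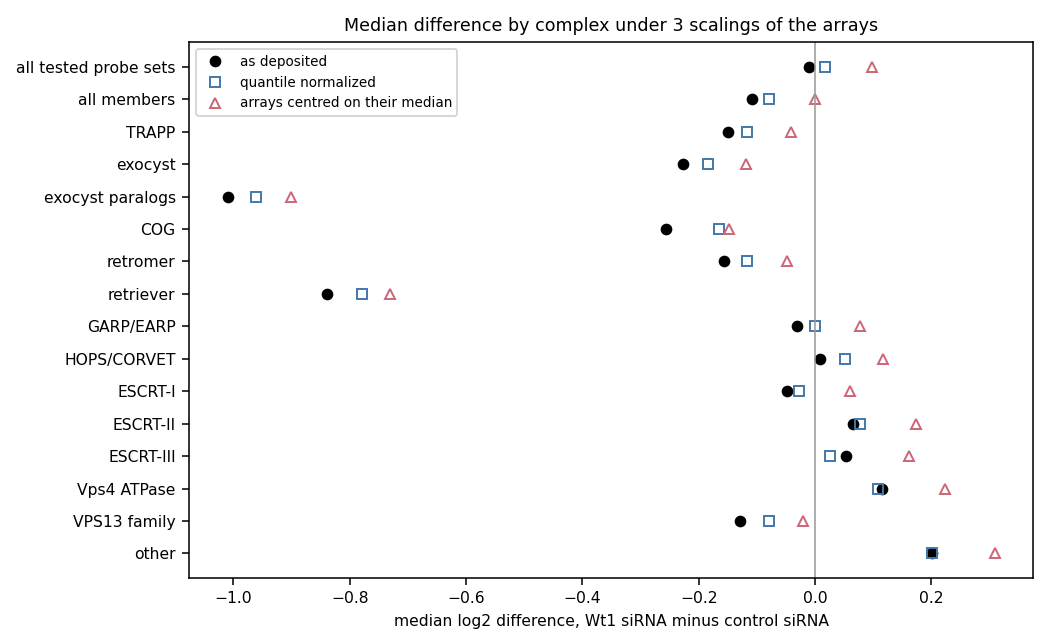
Median log2 difference (horizontal axis) of the tested probe sets of each complex, of all members and of all tested probe sets under 3 scalings of the arrays (circles as deposited, squares quantile normalized, triangles centred). The members' median moved from -0.11 to 0.00 with centring. TRAPP, exocyst, COG, retromer, retriever and VPS13 family medians were below 0 under all 3, as was the 1 tested probe set of the exocyst paralogs.

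The partners of these complexes were taken from 6 lists of textbook membership, made with earlier results of these data known, and 62 of their 241 tested probe sets were called, 22 higher and 40 lower. That is 25.7%, beside 23.1% of all tested probe sets, and with centring 35 were called (14.5%, beside 17%). By list the share called was 18.9% for golgins and other tethers and 19.2% for the coats. It was 26.3% for SNAREs and SM proteins and 26.7% for sorting nexins and WASH. For the GTPases it was 30.2%, and for the other ESCRT partners 31.0%. Of 76 probe sets of SNAREs and their SM regulators, 17 were lower and 3 higher, with a median of -0.12 (12 lower, 4 higher and -0.01 with centring). Stx3, a SNARE of apical delivery, was lower on all 4 tested probe sets and fell to 45.8% of control on the most changed (1250 ± 124 against 574 ± 78, SD, n = 4 each); 1 of the others, with overlapping groups, lost its call without control array 1 or 4 or Wt1 siRNA array 1, 2 or 3 (-0.85 to -0.67). Stx18, a SNARE of retrograde traffic to the endoplasmic reticulum, was lower on all 5, at 48.2% and 48.5% on the most changed. The groups of arrays did not overlap for the 3 probe sets whose percentages are given.

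Of 43 probe sets of Rab, Ral and related GTPases, 8 were higher and 5 lower (6 and 2 with centring). Ralb, which binds the exocyst subunits Exoc2 and Exoc8, rose 1.82-fold on one probe set, from 4539 ± 349 to 8229 ± 249, and was called at 0.45 on the other, a call lost without any array except control array 3 and Wt1 siRNA array 4 (0.31 to 0.48). Rhoq, the GTPase TC10, a binder of Exoc7, fell to 55.9% (7646 ± 570 against 4268 ± 204), and Rab1a, activated by TRAPP, to 67.5% on one probe set, with the other at 0.04 and not called. Of 37 probe sets of golgins and other tethers, 4 were higher and 3 lower (4 and 0 with centring), with Golga2 at 1.52-fold. Tgfbrap1, a CORVET subunit, was at 1.47-fold on one probe set and 0.04 ± 0.11 (log2, not called) on the brighter other. Cux1, whose locus also encodes the golgin CASP, was higher on 2 of 8 tested probe sets, by 1.44-fold at most, and the 8 ranged from -0.47 to 0.53. Errors of signals in this paragraph are SD with n = 4, and that of the Tgfbrap1 log2 difference is the SE of the fit.

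Of 30 probe sets of sorting nexins and the WASH complex, 6 were lower and 2 higher (1 and 2 with centring). Snx5, a retromer-linked sorting nexin, was lower on 3 of 5 tested probe sets, at 64.9%, 68.3% and 83.2% of control, and the 5 ranged from -0.62 to 0.17. The calls at 68.3% and 83.2% were lost with centring, and the latter also without control array 2 or 4 or Wt1 siRNA array 2 (-0.24 to -0.23). Washc2, which binds Vps35, was higher on 2 of 4, by 1.36-fold at most; the other call was lost with centring and without control array 1, 2 or 4 or Wt1 siRNA array 2 or 3 (0.23 to 0.28). Of 29 probe sets of other ESCRT partners, 5 were lower and 4 higher (1 and 3 with centring). Pdcd6ip, encoding ALIX, which binds Chmp4b, had probe sets on both sides of 0, from -0.57 to 0.40. Of its 5, 2 were lower, at 67.3% and 79.3% of control, and the second call was lost under both other scalings and without any array except control array 3 and Wt1 siRNA array 4 (-0.33 to -0.28). The other 3 were above 0 and not called. Mvb12a, an ESCRT-I subunit, was lower on 2 of 3 probe sets, at 75.1% and 78.7%. Both calls were lost with centring, and the first also without control array 2 or Wt1 siRNA array 2 or 3 (-0.41 to -0.34). Of 26 probe sets of the COPI and COPII coats, 4 were lower and 1 higher (0 and 0 with centring), with Sec13 at 73.2%, Copz2 at 75.0% and Copg1 at 1.27-fold on 1 of 2 probe sets (0.12 and not called on the other). Copz2 lost its call without control array 1, 2 or 4 or Wt1 siRNA array 2 or 3 (-0.42 to -0.34), and Copg1 without any array except control array 3 (0.29 to 0.37).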

How the data were processed

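Per the submitters' processing notes the authors made the deposited intensity values with MAS5 (version and genome build not given in the sources used here), which turns the probes of a Mouse 430_2 probe set into 1 linear signal. No detection calls were used. Probe sets were named through GEO's platform annotation. Of 45037 that are not array controls, 34945 had 1 symbol, 932 several and 9160 none. Symbols updated through Entrez IDs (GRCm38.p6 table) gave the same 176 members.

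Signals were log2 transformed without further normalization. Non-control probe sets in the brighter share of 0.5 by mean log2 signal (lowest mean 291) were tested with limma 3.58.1 (R 4.3.3; lmFit, eBayes with intensity trend), two-sided, with Benjamini-Hochberg adjustment at 0.05. Of these, 5194 were called (2430 higher, 2764 lower). Percent of control and fold are 2 to the power of the log2 difference. On simulated data with 22518 probe sets, 200 of them changed, 18% of changes of 0.5 and 76% of changes of 1 (log2) were recovered, with 6 unchanged among 100 calls. Far fewer probe sets were changed there than the 5194 called here, which makes the adjusted threshold stricter. These shares therefore do not give the recovery of the fit on the real arrays. The number of arrays limits the precision.

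The members and lists were chosen with earlier results of these data known. Genes named are Trappc2, Snf8, called Exoc probe sets, up to 4 called probe sets per complex and direction whose groups did not overlap, and up to 3 per partner list; the calls with overlapping groups (Cog8, Vps37b and 1 of Vps35l), Trappc5 (beyond the 4 in TRAPP), members not called and the further probe sets of partner genes were named after their values were seen. Alternatives were other scalings, offsets, filters and variance models, the replicate number as a block, 1 probe set a gene, removal of shared-sequence probe sets and leaving out each array. Plots used Python 3.11.15 and matplotlib 3.10.9.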

Additional observations from a re-analysis of the deposited data

Results flagged for a closer look

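In 4 of 70 groups of 4 arrays examined, for the named member probe sets and Wt1, 1 array stood apart from the other 3, where chance gives about 1 in 20. Cog4 read 4481.4 on control array 3, above the other control arrays at 3728.7 to 3840.9. Vps54 read 1436.9 on Wt1 siRNA array 4, below the others at 1980.1 to 2029.3. Trappc1 read 6864.1 on control array 1 (others 7505.2 to 7617.0) and 5138.1 on Wt1 siRNA array 4 (others 6142.6 to 6312.4).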

How the results depend on the processing

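Of the 38 member calls, 20 were kept under every alternative that tested them, 27 without any single array, and 34 under quantile normalization; centring each array on its median lost 16, and none of the 38 reversed its sign. Centring gave 23 member calls (15 lower), 1369 lower over all tested probe sets and 35 partner calls. Its own construction shifts every difference by 0.11, which moves lower calls toward 0. With 1 probe set a gene, fewer features were tested and 3395 were called in all (1687 lower), with 39 partner calls. Leaving out 1 array gave 30 to 41 member calls (22 to 30 lower, 6 to 11 higher) and 37 to 69 partner calls, lowest without control array 4 and, at 38, without Wt1 siRNA array 2. Offsets of 16 and 64, the brightest share of 0.25, no filter, no intensity trend and robust eBayes left the member count between 30 and 38. The Wt1 fall kept its call wherever its probe set was tested; the alternative without suffixes _s_at and _x_at left it out. With the replicate number as a block, member calls went from 38 to 33. Arrays of the same number did not deviate together (correlations of -0.04, -0.06, 0.04 and 0.08), and the same number gave the highest correlation for 1 of 4 control arrays, so the numbers were not taken to pair the samples.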

Other observations

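Several pairs of paralogs or partners lay on opposite sides of 0, a pattern noticed in these values and not tested. The log2 differences were 0.70 for Vps26a and -0.40 for the called Vps26b probe set, 0.26 for Chmp2b and -0.66 for Chmp2a, 0.54 for Vps37b and -0.58 for Vps37c, and 0.37 for Vps26c beside -0.69 for the brightest probe set of its partner Vps35l. Of these, the Vps26b, Vps37c and Chmp2b calls did not pass the threshold after each array was centred, where the Chmp2b difference was larger (0.37) and those of Vps26b (-0.30) and Vps37c (-0.47) smaller. The Vps37b groups overlapped, and its call was lost without control array 4 or Wt1 siRNA array 1 or 2. The Chmp2b call was also lost under quantile normalization and without any array except Wt1 siRNA arrays 1 and 4. Other paralogs lay on the same side of 0, such as Exoc6 (-0.88 to -0.45) and the called Exoc6b probe set (-0.44).

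Among dim members outside the fit, a second Chmp5 probe set had a mean of 187 ± 33 on control and 47.0 ± 34.4 on Wt1 siRNA arrays (SD, n = 4) without overlap, and it was called as lower when no filter on signal was used. It was above background on 2 of 4 control arrays and on 0 of 4 Wt1 siRNA arrays, and the bright Chmp5 probe set was at 0.07.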
